A study of Cricetulus griseus with 4 samples.

Results

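Ubiquitin conjugation and cullin ligase genes were represented by UBE2A, UBE2N, UBE2R2, ELOC and CAND2. These 5 genes were taken from the platform annotation as probes that carry 1 gene symbol, and they stood on 6 of 1152 probes, since UBE2R2 was on 2. They are 5 of the 347 genes that could be named on the array. The chromosomally stable clone RT210B was compared on 4 two-channel arrays with pools of unstable clones, to test isogenic stable and unstable clones for differences in expression. Unstable mixture 1 held equal amounts of clones LS12 and 10-107-9, and unstable mixture 2 held equal amounts of clones Fe10-3 and 10-56-11. Each mixture was measured on 2 arrays. All RNA was labelled as Chinese hamster (Cricetulus griseus), and the labels name no tissue, cell type, treatment or time. Each pool merges 2 clones and the stable side is 1 clone, so a value cannot be assigned to a single unstable clone. As background that the labels do not give, clones with such names come from Chinese hamster ovary cells holding a copy of human chromosome 4, in which radiation-induced chromosomal instability has been studied.

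Ubiquitin is attached to proteins by an activating enzyme, a conjugating enzyme (E2) and a ligase (E3), and the form of the ubiquitin chain decides whether the protein is degraded by the proteasome or acts as a signal. UBE2A and UBE2N are E2 enzymes of DNA damage tolerance: the first adds a single ubiquitin to the replication clamp PCNA, and the second, with its partner UBE2V2, extends it to a signalling chain. UBE2R2 is an E2 of the CDC34 family that builds degradation chains on substrates of cullin ligases. ELOC, elongin C, is the adaptor that links substrate receptors such as VHL and the SOCS proteins to CUL2 and CUL5, and it is also part of the elongin transcription elongation factor. CAND2 is the muscle-enriched relative of CAND1, which binds cullins that lack NEDD8 and lets ligases exchange their substrate receptors.

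Every value is a log2 ratio between the channels of an array, averaged over the 2 spots of a probe and centred on the array's median probe. A value of 1 is a 2-fold distance from that middle. The labels do not settle which pool is the numerator, so a probe is described as lying on the positive or the negative side, and neither side is read as higher in the stable or the unstable cells. In pooled RNA, fewer cells with a transcript and less transcript per cell cannot be told apart. The labels do not say whether the replicate arrays came from separate cultures, so p-values reflect the spread among these 4 arrays alone, and that spread may be technical. RT210B was the control of both mixtures.

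The arrays differed in spread, which touches every comparison between the mixtures. Over all probes the SD was 1.14 and 1.05 for the mixture 1 arrays, and 0.80 and 0.47 for the mixture 2 arrays. Duplicate spots correlated across probes at r = 0.725 to 0.819, against 0.0033 to 0.074 for neighbouring spots of different probes. Before centring, the array medians were -0.12 and -0.22 in mixture 1 and -0.44 and -0.53 in mixture 2.

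The members spread to both ends of the arrays of mixture 1 and stayed nearer the middle in mixture 2. From the lowest to the highest member probe, the range (log2) was 4.92 and 4.13 for the mixture 1 arrays, against 2.36 and 1.18 for the mixture 2 arrays. On each array of mixture 1, 4 of the 6 member probes were at least 2-fold from the middle, against 42.7% and 38.5% of all probes. On the arrays of mixture 2 the numbers were 2 and 0 of 6, against 19.3% and 3.73% of all probes.

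**Figure D1:**
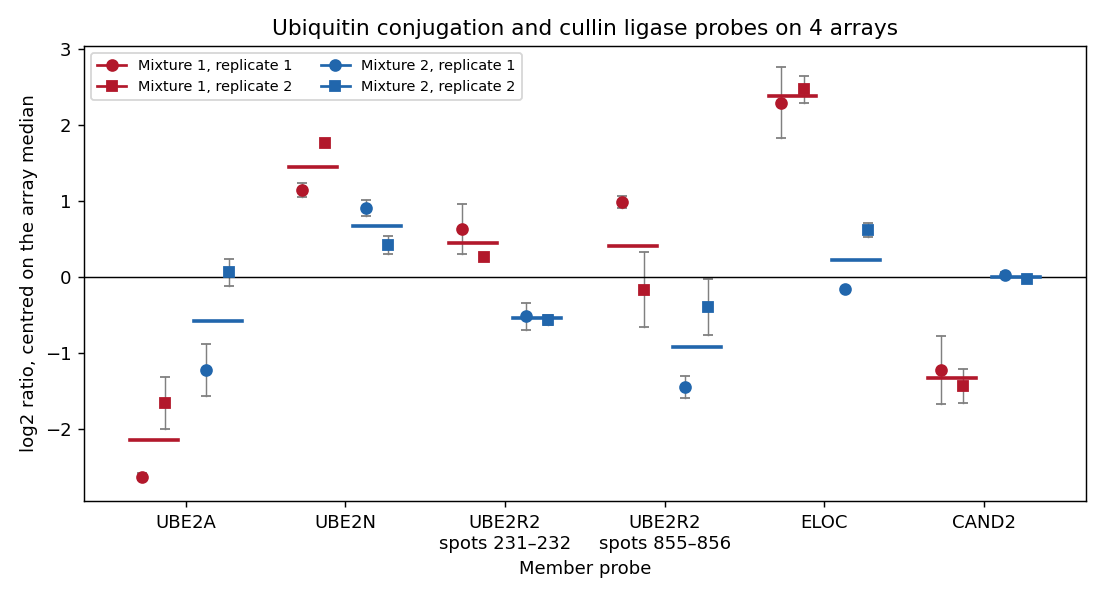
Centred log2 ratio (vertical axis) of each member probe (horizontal axis) on the 4 arrays; circles are replicate 1, squares replicate 2, red mixture 1 and blue mixture 2, thick bars are means of 2 arrays, and thin grey lines join the 2 spots of a probe. For each of the 6 probes the red and blue points do not overlap, as was also so for 62.2% of all probes. Among the member probes ELOC has the widest gap between them, 1.68.

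Among the E2 enzymes, UBE2A had the lowest value of the members in mixture 1. Its centred log2 ratios were -2.63 and -1.65 for the mixture 1 arrays, then -1.23 and 0.066 for the mixture 2 arrays. It was negative on 3 arrays and at the middle on the fourth, and its mixture 1 arrays lay below its mixture 2 arrays by 0.43. On the first array of mixture 1 UBE2A was at rank 18 from the bottom of 1152 probes, and on the second array at rank 51. The duplicate spots of UBE2A agreed closely on the first array of mixture 1, at -2.68 and -2.58, and less so on the second, at -2.00 and -1.31. In the fit, which takes its spread from all 4 arrays, UBE2A lay at -2.14 in mixture 1 (SE 0.394, 95% interval -3.04 to -1.25), or 4.41-fold from the middle, with a limma Benjamini-Hochberg adjusted p of 0.00821. In mixture 2 it lay at -0.58 (SE 0.394) and did not pass (limma adjusted p 0.395), and its value was 0.066 with replicate 1 of mixture 2 left out.

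UBE2N lay on the other side. Its values were 1.14 and 1.76 for the mixture 1 arrays, then 0.91 and 0.42 for the mixture 2 arrays. It was the only member positive on all 4 arrays, where 45.7% of all probes kept 1 sign. Both spots of UBE2N were positive on every array. Without centring its value on the second array of mixture 2 was -0.11, so that sign rests on the centring. On the second array of mixture 1 UBE2N ranked 47 from the top of 1152 probes, and on the first it ranked 172. In mixture 1 it lay at 1.45 (SE 0.313, interval 0.74 to 2.16) with a limma adjusted p of 0.00974. In mixture 2 it lay at 0.67 (interval -0.043 to 1.38) and did not pass (limma adjusted p 0.260). The probes next to UBE2N in spot order were themselves mostly positive on the arrays of mixture 1, with medians of 0.55 and 0.56 over the 10 probes before and the 10 after it. Measured from those neighbours, an alternative chosen after seeing the data, UBE2N lay at 0.90 in mixture 1 and no longer passed (limma adjusted p 0.0578).

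The difference between these E2 enzymes of DNA damage tolerance was wide in mixture 1 and narrowed in mixture 2. UBE2N lay above UBE2A by 3.77 and 3.42 (log2) on the arrays of mixture 1. On the arrays of mixture 2 the distance was 2.14 and 0.36. The order of the pair was the same on the 4 arrays. The arrays of mixture 2 were also narrower over all probes. With the arrays scaled to 1 spread, UBE2N and UBE2A lay at 1.12 and -1.63 in mixture 1. Under that scaling they lay at 0.93 and -0.64 in mixture 2.

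UBE2R2, the cullin-directed E2, was measured by the probe at spots 231 and 232 and by the probe at spots 855 and 856. The first probe had values of 0.63 and 0.27 in mixture 1 and of -0.52 and -0.57 in mixture 2. It was the only member on opposite sides of the middle on every array, positive in mixture 1 and negative in mixture 2, as were 11.5% of all probes. The second probe had values of 0.99 and -0.16 in mixture 1 and of -1.45 and -0.39 in mixture 2. Its mixture 1 arrays lay on both sides of the middle, and its spots on the second of these arrays were themselves split, at 0.33 and -0.66. Both probes were thus higher on the arrays of mixture 1 than on those of mixture 2.

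The probes of UBE2R2 had closer means than replicate arrays of the second probe. In mixture 1 they lay at 0.45 (SE 0.289) and 0.41 (SE 0.387), and in mixture 2 at -0.54 (SE 0.289) and -0.92 (SE 0.387). None of these values passed in limma, with adjusted p-values of 0.229, 0.407, 0.305 and 0.254. The first probe minus the second was -0.35 and 0.43 for the mixture 1 arrays, then 0.93 and -0.17 for the mixture 2 arrays. The mean of these differences was 0.21 (SD 0.586, n = 4), with a two-sided p of 0.625 in an exact sign-flip permutation test, where 4 arrays give 16 sign patterns, of which at least 2 are always as extreme. Without replicate 1 of mixture 2 the mean difference was -0.032, so its sign rests on that array. In the mean of both mixtures the opposite sides cancelled, at -0.046 (interval -0.51 to 0.42) and -0.25 (interval -0.88 to 0.37).

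Of the cullin ligase partners, ELOC had the highest value of the members in mixture 1. Its values were 2.30 and 2.47 on the arrays of mixture 1, 4.92-fold and 5.55-fold from the middle, and -0.16 and 0.62 on those of mixture 2. ELOC ranked 7 from the top of 1152 probes on both arrays of mixture 1. On the arrays of mixture 2 it ranked 670 and 40. Its spots were 1.82 and 2.77 on the first array of mixture 1 and 2.65 and 2.29 on the second, so that every spot was past 2-fold although the duplicates of the first array were wider apart than those of 76.6% of probes. In the fit ELOC lay at 2.39 in mixture 1 (SE 0.313, interval 1.67 to 3.10), with a limma adjusted p of 0.00610, and it was at rank 8 of 1152 by size. In mixture 2 it lay at 0.23 (interval -0.48 to 0.94, limma adjusted p 0.686), and the sign changed to -0.16 without replicate 2 of mixture 2 and to -0.26 without centring.

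CAND2 had values of -1.23 and -1.44 on the arrays of mixture 1. On the arrays of mixture 2 it stood at the middle, with 0.028 and -0.025. Its replicates in mixture 2 differed by 0.053 and those of the first UBE2R2 probe by 0.048, against 0.49 to 1.29 for the other member probes. The spots of CAND2 were all negative in mixture 1, between -0.78 and -1.68, and between -0.064 and 0.072 in mixture 2. CAND2 lay at -1.33 in mixture 1 (SE 0.285, interval -1.98 to -0.69), 2.52-fold from the middle, with a limma adjusted p of 0.00961. In mixture 2 it lay at 0.0018 (interval -0.65 to 0.65), with a limma adjusted p of 0.999.

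**Figure D2:**
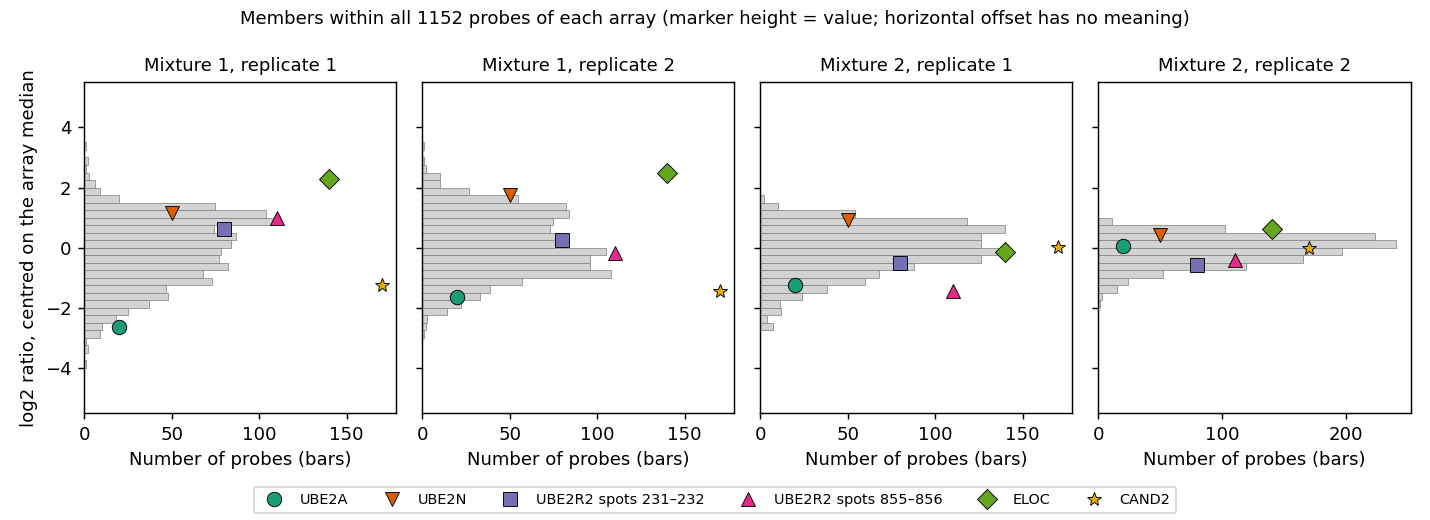
Histograms of the centred log2 ratios (vertical axis) of all 1152 probes, 1 panel per array, with the number of probes on the horizontal axis and the members as coloured markers at their own height. ELOC stands at rank 7 from the top on both arrays of mixture 1 and UBE2A at ranks 18 and 51 from the bottom, while on the arrays of mixture 2 the histograms are narrower.

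The order of the members in mixture 1 was ELOC, UBE2N, the first and the second UBE2R2 probe, CAND2 and UBE2A. Between ELOC and UBE2N the array values did not overlap, with 2.30 the lower for ELOC and 1.76 the higher for UBE2N. CAND2 and UBE2A did not overlap either, with -1.44 the lower for CAND2 and -1.65 the higher for UBE2A. The UBE2R2 probes overlapped one another. In mixture 2 the order was UBE2N, ELOC, CAND2, the first UBE2R2 probe, UBE2A and the second UBE2R2 probe. There the arrays of UBE2N and ELOC overlapped, and UBE2A, from -1.23 to 0.066, overlapped each of the others except UBE2N.

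In total 4 of the 6 member probes passed in mixture 1 at a limma adjusted p under 0.05: UBE2N and ELOC on the positive side, UBE2A and CAND2 on the negative. Of all 1152 probes 43.1% passed in this comparison, 24.4% as positive and 18.8% as negative values. The median of the member probes was 0.43 and that of all probes -0.027, and the median size without sign was 1.39 for members and 0.80 for all probes. The 4 members that passed were also at least 2-fold with 1 sign on both arrays, as were 23.6% of all probes. The split of all passing probes varied with the setting: 281 were positive and 216 negative as centred, and 232 and 292 without centring. With the arrays scaled to 1 spread, 129 were positive and 102 negative. After the trend of the ratio on the difference between duplicate spots was removed, 83 were positive and 147 negative. The 4 members passed in each of those settings with the same signs.

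In mixture 2 no member probe passed, and neither did any other probe in limma. At an unadjusted p under 0.05 there were 226 probes (19.6%), among them the second UBE2R2 probe (unadjusted p 0.0423). The member values there had a median of -0.27, against -0.0030 over all probes, and a median size of 0.56 against 0.42. No member was at least 2-fold with 1 sign on both arrays of mixture 2, against 1.91% of all probes. The absence of passing members depended on the setting. The second UBE2R2 probe passed when arrays had been scaled to 1 spread (-1.21, limma adjusted p 0.0407) and in a fit of the arrays of mixture 2 alone (-0.92, limma adjusted p 0.0459), and both UBE2R2 probes passed without centring (-1.03 and -1.41, limma adjusted p 0.0424 and 0.0351). Of all probes 22.7% passed under that scaling and 9.81% in that separate fit. Without centring 17.9% passed, 206 negative and 0 positive, with uncentred array medians of -0.44 and -0.53. The separate fit of mixture 2 gave each member probe the same SE, 0.320. Its p-values thus did not use the distance between a probe's own arrays, which was 1.05 for the second UBE2R2 probe.

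Over the mean of both mixtures the same 4 members passed with the same signs, where 38.7% of all probes did, 21.7% as positive and 17.0% as negative values. UBE2A lay at -1.36 (SE 0.278, limma adjusted p 0.0106) and ELOC at 1.31 (SE 0.221, limma adjusted p 0.00906). UBE2N lay at 1.06 (SE 0.221, limma adjusted p 0.0107) and CAND2 at -0.67 (SE 0.201, limma adjusted p 0.0302). The mean shares its mixture 1 arrays with the comparison above and is no separate support for it. For ELOC and CAND2 the mean joins a value far from the middle in mixture 1 and one near it in mixture 2. CAND2 did not pass in 7 of 14 other settings, among them without replicate 1 or 2 of mixture 2 (-0.68 and -0.65, limma adjusted p 0.131 and 0.129) and when replicate 2 of mixture 1 was left out (-0.61, limma adjusted p 0.0589). Of all passing probes 250 were positive and 196 negative as centred, against 124 and 434 without centring and 44 and 85 after removal of the trend on the duplicate difference.

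**Figure D3:**
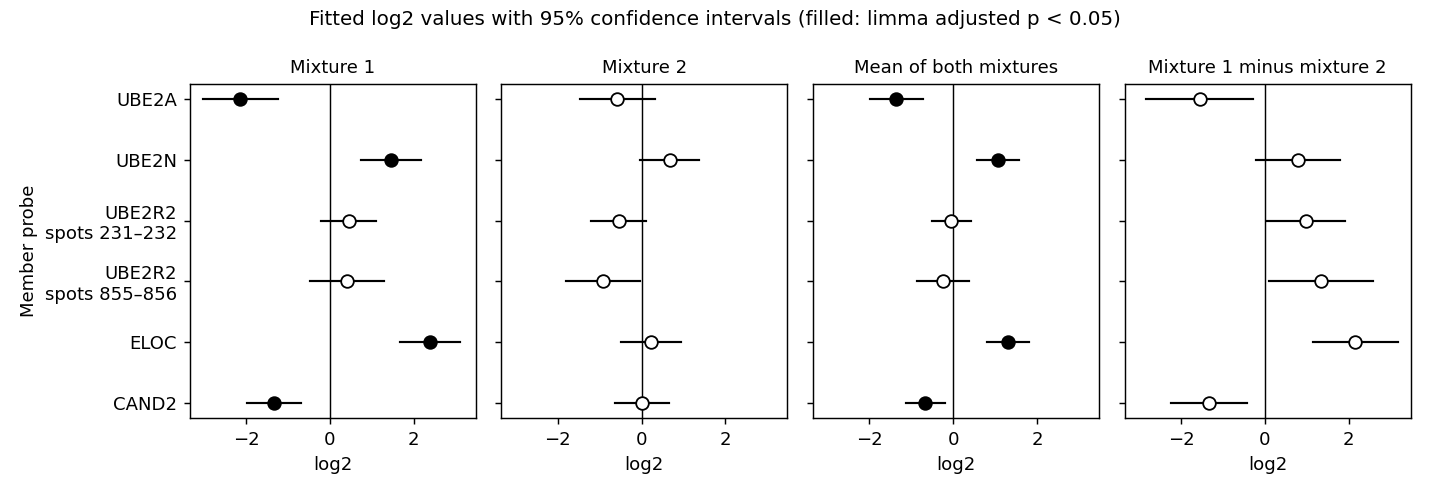
Fitted log2 value (horizontal axis) of each member probe (vertical axis) with its 95% confidence interval, in 4 panels for mixture 1, mixture 2, their mean and their difference; filled circles have a limma adjusted p under 0.05. The filled circles are the same 4 probes in mixture 1 and in the mean, and there are none in mixture 2 or in the difference.

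Mixture 1 minus mixture 2 asks whether the pools of unstable clones differed from each other. The arrays of the mixtures did not overlap for 6 of 6 member probes, as was also so for 62.2% of all probes. The mixture 1 arrays were the higher ones for 4 member probes (UBE2N, ELOC and both of UBE2R2) and for 36.2% of all probes, and the lower ones for 2 (UBE2A and CAND2) and for 26.0% of all probes. ELOC had the widest difference, 2.16 (SE 0.443, interval 1.15 to 3.16), with a limma adjusted p of 0.0732, the smallest of any member. UBE2A differed by -1.56 (interval -2.83 to -0.29, limma adjusted p 0.152) and CAND2 by -1.34 (interval -2.25 to -0.42, limma adjusted p 0.115). The UBE2R2 probes differed by 0.99 and 1.33 (limma adjusted p 0.185 for both) and UBE2N by 0.78 (interval -0.22 to 1.79, limma adjusted p 0.290).

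No member and no other probe passed for this difference in limma, whereas 5 of the 6 member probes and 23.9% of all probes (275) had an unadjusted p under 0.05. The call for ELOC turned with the setting: among other settings, its limma adjusted p was 0.0245 without centring (2.47), where 4.08% of all probes passed, and 0.0365 over probes with 1 gene symbol alone. With an array left out, the difference ran from 1.77 to 2.55 for ELOC and from -2.21 to -0.91 for UBE2A. For the second UBE2R2 probe it ran from 0.76 to 1.91. A fit with 1 array left in a mixture takes its spread from the other mixture, whose arrays may vary differently. The narrower spread of all probes on the arrays of mixture 2 moves with these differences, and its part in them was not tested beyond the scaling, under which the difference of ELOC was 1.34 (limma adjusted p 0.207), that of UBE2N 0.19 and that of UBE2A -0.99.

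Duplicate spots of the members fell on 1 side of the middle in 20 of 24 pairs of a member probe and an array. In 10 of the 24 pairs the duplicates differed by less than the array's median pair of spots. Within mixture 1, 5 of 6 member probes had both spots on 1 side on both arrays, the second UBE2R2 probe being the exception. These counts of spots on 1 side have no share over all probes beside them, and they describe the members alone.

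Lists of other ubiquitin genes had few members among the named probes. Of 326 further genes in lists of E1 and E2 enzymes, cullin ligase subunits, other ligases, deubiquitinating enzymes, proteasome subunits and known partners or substrates, 4 were on a probe with 1 symbol. The lists of E1 and E2 enzymes, cullin ligase subunits, deubiquitinating enzymes and proteasome subunits had no named probe, and their genes may sit on probes without a name here. From the list of other ligases 3 were named: HLTF, which with UBE2N builds the signalling chain on PCNA, and BRCA1 and BARD1, the paired subunits of a ligase in DNA break repair. From the list of partners and substrates WEE1 was named, the kinase that holds back mitosis and is degraded through a cullin ligase.

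HLTF, the ligase partner of UBE2N, had values of 0.50 and 0.48 in mixture 1 and of 0.82 and 0.39 in mixture 2. It was positive on all 4 arrays, as UBE2N was, but did not pass in mixture 1 (0.49, limma adjusted p 0.199), in mixture 2 (0.61, limma adjusted p 0.273) or in the mean (0.55, limma adjusted p 0.0625). In the mean HLTF passed when arrays had been scaled to 1 spread (0.61, limma adjusted p 0.0381) and when duplicate spots were fitted with their correlation (0.55, limma adjusted p 0.0155). Of all 1152 probes, 39.9% passed in the mean under that scaling and 470 probes with that correlation. BARD1 was also positive throughout, with 0.28 and 0.61 in mixture 1 and 0.98 and 0.19 in mixture 2, and did not pass in either (limma adjusted p 0.277 and 0.308) or in the mean (0.51, limma adjusted p 0.0970). BARD1 passed in mixture 1 when centred on neighbouring probes (0.98, limma adjusted p 0.0368), and in the mean under that centring (0.82, limma adjusted p 0.0231) and with the correlation of duplicate spots (limma adjusted p 0.0262). Centred on neighbouring probes, 41.4% of all probes passed in mixture 1 and 36.6% in the mean. Without centring, HLTF and BARD1 lay at -0.14 and -0.34 on the second array of mixture 2. BRCA1, its partner, had -0.40 and -0.83 in mixture 1 and 0.69 and 0.30 in mixture 2, on opposite sides on every array, with a difference of -1.11 between the mixtures (limma adjusted p 0.167). Without centring BRCA1 lay at -0.23 on the second array of mixture 2, so its opposite sides there rest on the centring. WEE1 had 0.99 and 1.16 in mixture 1 and 1.13 and 0.40 in mixture 2, and it passed in mixture 1 (1.08, limma adjusted p 0.0235) and in the mean (0.92, limma adjusted p 0.0138). WEE1 failed in mixture 1 once the arrays were scaled to 1 spread (0.83, limma adjusted p 0.0725), on the second spot alone (1.04, limma adjusted p 0.0554), after removal of the trend on the duplicate difference (0.58, limma adjusted p 0.207) and when replicate 2 of mixture 1 was left out (0.99, limma adjusted p 0.0654). In the mean it failed without centring (0.59, limma adjusted p 0.0525), after removal of that trend (0.65, limma adjusted p 0.0859) and with replicate 1 of mixture 2 left out (0.74, limma adjusted p 0.0998). In mixture 2 it passed under the scaling (1.03, limma adjusted p 0.0408), as did 22.7% of all probes. Of the 4 list genes 1 passed on the positive side in mixture 1 and 0 on the negative side, against 24.4% and 18.8% of all probes. Their median was 0.47 against -0.027 for all probes, and their median size without sign was 0.55 against 0.80.

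The lists were not complete, and 6 further ubiquitin ligase genes with a named probe are given as values alone, since they were picked after values were seen. KLHL9, a substrate adaptor of CUL3, had -1.24 and -0.84 in mixture 1 and 1.02 and -0.054 in mixture 2. The RING finger ligase RNF13 had -1.24 and -2.09 in mixture 1 and -0.063 and -0.31 in mixture 2. RNF6, another RING ligase, had 0.55 and 0.57 in mixture 1 and 1.13 and 0.31 in mixture 2. The mixture means were -0.66 and -0.47 for TRIM27 and -0.37 and -0.38 for TOPORS. RBBP6 lay at 0.029 in mixture 1 and -0.49 in mixture 2.

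For each member probe the named probes that lay nearest over the 4 arrays were taken, by the root mean square difference of the centred log2 ratios over 349 other named probes. For ELOC they were HSP90AA1, the stress-induced cytosolic chaperone (0.165), PRDM2, a histone methyltransferase (0.314), and MAT2A, which makes S-adenosylmethionine (0.512), where the median over named probes was 1.82. HSP90AA1 had values of 2.22, 2.68, -0.27 and 0.84 over the arrays in the order of mixture 1 and then mixture 2. For UBE2A they were RPA3, the smallest subunit of replication protein A, which coats single-stranded DNA (0.287), NR2F1, a nuclear receptor (0.427), and ARCN1, a coat protein of Golgi vesicles (0.520). RPA3 lay at -2.11, -1.63, -0.99 and 0.0053.

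UBE2N was followed most closely of the members, by ID4, an inhibitor of helix-loop-helix transcription factors (0.091), IRF1, an interferon-regulated transcription factor (0.104), and SRA1, a receptor coactivator (0.120). For CAND2 the nearest were the membrane protease MMP15 (0.113), PSMG1, a chaperone of proteasome assembly (0.147), and ID3 (0.250). PSMG1, which was on none of the lists, lay at -1.38, -1.50, -0.13 and -0.21. The first UBE2R2 probe lay nearest to ZNF76 (0.181), TBRG4 (0.181) and the collagenase MMP13 (0.189), and the second to NFX1 (0.133), the cadherin CDH8 (0.200) and the calpain CAPN1 (0.270). The UBE2R2 probes did not name each other among their 3 nearest. With 4 arrays and a shared control, such closeness is a description of the profiles.

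**Figure D4:**
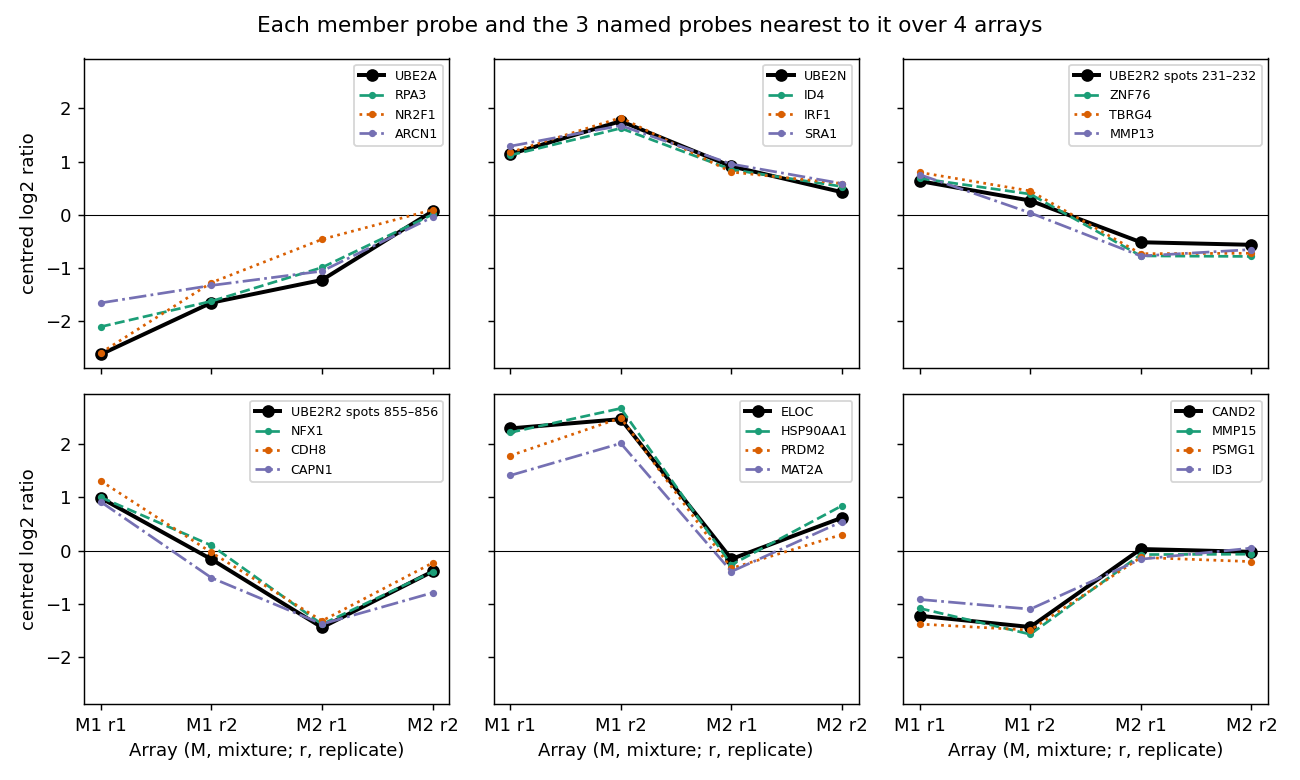
Centred log2 ratio (vertical axis) of each member probe (black) and of the 3 nearest named probes (coloured) on the 4 arrays (horizontal axis: M1 and M2 are the mixtures, r1 and r2 the replicates), 1 panel per member; lines only join values of 1 probe. HSP90AA1 tracks ELOC to 0.165 and ID4 tracks UBE2N to 0.091 (root mean square, log2).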

How the data were processed

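Expression was compared on 4 two-channel arrays, 2 for each unstable mixture. The authors deposited log2 ratios of the channels, 1 for each of 2304 spots. Per the labels, a normalization factor of 3.8 belongs to mixture 1 replicate 2 and one of 1.169 to mixture 2 replicate 1. Their use, the dyes, scanner, background correction and spot filtering are not stated in the labels. In the deposited log2 values, ratios had been rounded to hundredths on every array (100% of spots within 0.001). No spot intensities were used, so signal over background is unknown. The number of arrays limits the precision (median SE 0.313 for a mixture, log2).

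Adjacent spots 2n-1 and 2n share their annotation and were averaged to 1152 probes, and each array was centred on its median probe. GEO's platform annotation, with human symbols, gave the names. Of the probes 350 had 1 symbol, 8 several and 794 are unnamed here. All 5 member symbols, and 306 of the 347 named genes, also exist in the hamster RefSeq annotation (assembly CriGri-PICRH-1.0); hybridisation across species was not measured.

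Limma 3.58.1 in R 4.3.3 (lmFit, eBayes) fitted 1 mean per mixture over all 4 arrays and all 1152 probes, with 2 residual and 6.69 prior degrees of freedom and Benjamini-Hochberg adjustment over all probes (threshold 0.05). RT210B enters as 1 control sample, whose own spread is left out. Members, lists and alternatives were chosen with earlier results of these data known. By rule, every member probe, every list gene with 1 symbol and the 3 nearest named probes of each member were named. Alternatives changed the centring, the scale, the spots, the variance prior, the probes and the arrays fitted.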

Additional observations from a re-analysis of the deposited data

Results flagged for a closer look

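The first UBE2R2 probe (spots 231 and 232) stood out because it was positive on both arrays of mixture 1 and negative on both arrays of mixture 2, with a difference of 0.99 (log2, limma adjusted p 0.185). The second UBE2R2 probe did not show this split, with 0.99 and -0.16 in mixture 1. BRCA1 was also on opposite sides on every array, negative in mixture 1 and positive in mixture 2, with a difference of -1.11 (limma adjusted p 0.167). Without centring BRCA1 lay at -0.23 on the second array of mixture 2, so its split rests on the centring. Neither difference passed, and 11.5% of all probes showed such a split.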

How the results depend on the processing

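Of 348 values of single member probes under other settings, 313 kept their sign and their side of the threshold, 8 lost the call, 14 gained it and 13 changed sign. Of 232 values of the 4 list genes, 204 kept both and 15 changed sign. UBE2A, ELOC and CAND2 passed in mixture 1 in each of 15 other settings, and UBE2N in 14 of them. Not all of these settings were separate checks. Leaving out either array of mixture 2 gave mixture 1 the same result as fitting its arrays alone. Where an array of mixture 1 was left out, its value rests on the array that remained. The number of passing member probes in mixture 1 was 4 in each setting except 3 when centred on neighbouring probes, an alternative chosen after seeing the data.

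In mixture 2 the number of passing member probes rose from 0 to 2 without centring and to 1 with the arrays scaled to 1 spread or fitted alone, and it was 0 to 1 with an array left out. For the difference between the mixtures it rose from 0 to 1 without centring, with the replicate block or over probes with 1 symbol alone, and was 0 to 3 with an array left out. In the first 3 of these settings that member was ELOC (limma adjusted p 0.0275 with the replicate block). Same-numbered arrays of the mixtures did not deviate together (r = -0.098 across probes), and the labels do not pair them. This correlation cannot show whether such arrays were processed together. Over all probes, 231 passed in mixture 1 with scaling and 230 after the trend on the duplicate difference was removed, against 497. In mixture 2, 206 passed without centring, 262 with scaling, 113 fitted alone and 0 to 113 with an array left out, against 0. In the mean, 129 passed with the trend removed, and 219 to 505 with an array left out, against 446. For the difference, 47 passed without centring, 36 with the replicate block, 2 with duplicate spots fitted singly under their correlation and 0 to 213 with an array left out, against 0. Over probes with 1 symbol alone, 148, 1, 126 and 15 of 350 passed in these 4 comparisons.

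Sign changes concerned values that had not passed. In mixture 2, CAND2 lay at -0.48 without centring, -0.0071 with scaling, -0.084 on the second spot and -0.25 with the trend removed, and ELOC at -0.26 without centring. With an array left out, mixture 2 values ran from -0.025 to 0.028 for CAND2, -0.16 to 0.62 for ELOC and -1.23 to 0.066 for UBE2A, and the second UBE2R2 probe ran from -0.16 to 0.99 in mixture 1. In the mean, the first UBE2R2 probe lay at 0.037 when centred on neighbours and ran from -0.14 to 0.046 with an array left out, and the second ran from -0.54 to 0.034. BRCA1 lay there at 0.10 with scaling, 0.054 on the second spot and 0.059 with the trend removed, and ran from -0.17 to 0.048 with an array left out. For the difference, WEE1 lay at -0.20 with scaling and -0.14 with the trend removed, BARD1 at 0.18 without centring and 0.32 on neighbours, and HLTF at 0.20 without centring and 0.099 on the second spot. With an array left out these ran from -0.059 to 0.68, -0.53 to 0.25 and -0.33 to 0.097. The first minus the second UBE2R2 probe ran from -0.032 to 0.40 with an array left out. The causes were not tested.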
